A study of Mus musculus with 12 samples.

Results

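The genes described here are 38 cell cycle and DNA replication genes, chosen by name from a list of established cell cycle genes out of 56205 genes in a count table of mouse liver RNA. They were divided by role into 19 genes of G2/M and mitosis and 19 genes of G1/S and replication. The comparison asked how these genes differed in the livers of ob/ob mice given ethionine, a mouse model of liver disease. The names of the groups are the submitters' own. The 12 poly(A) libraries came from whole livers, 1 library per mouse. All mice carried the Lep ob mutation (B6.Cg-Lep ob/J), so both groups lacked leptin and were obese, and they were between 8 and 10 weeks old when treatment began. The 6 OBOB_FLO mice ate standard chow, and the 6 OBOB_Fibrotic mice ate the same chow and received DL Ethionine, the ethyl analogue of methionine. The descriptions of the treatment differ: 0.165% in the drinking water for 2 weeks, an injection of 0.15%, or 0.15% in the water for 1 week. No lean mice entered the comparison, so a difference between groups is one between obese livers with and without ethionine.

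A cell enters the cycle when D-type cyclins and Cdk4 loosen the hold of pocket proteins on E2F factors, which then drive the genes of nucleotide supply and DNA synthesis. Replication origins are licensed with the Mcm helicase before S phase, and a later wave of genes, driven by Foxm1 and by a B-Myb and MuvB complex, builds the spindle and carries out mitosis. Mitosis ends when the anaphase-promoting complex with Cdc20 marks the B-type cyclins for destruction. In the adult liver most hepatocytes rest outside the cycle and many are polyploid.

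Values are raw counts, or CPM, which are counts scaled to the TMM-normalised library size. A gene was called lower or higher when the edgeR quasi-likelihood test gave an adjusted p (Benjamini-Hochberg over 13416 genes) of 0.01 or less with a log2 fold change over 0.5 in size, that is 1.41-fold. Fold changes are OBOB_Fibrotic relative to OBOB_FLO. Total counts were 17815568 to 20352675 in OBOB_Fibrotic and 18275320 to 24814263 in OBOB_FLO, so that 3 counts, the floor used here, stand for 0.128 to 0.178 CPM. The libraries were those of liver, since 8 of 8 hepatocyte markers were present and together made up 55703 to 92717 CPM in OBOB_Fibrotic and 75656 to 92625 in OBOB_FLO. Only males are described, but 1 library went against this. OBOB_FLO replicate 3 held 3773 Xist counts and 4 Ddx3y counts, whereas the others held 0 to 4 and 556 to 977. The numbers of called cell cycle genes are therefore also given without it.

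Of the 38 genes, 18 were called lower in the ethionine-treated livers, among them Cdc20, Ccnb1, Tpx2 and Tk1, and 1 was called higher. Among all tested genes 29.9% were called in either direction, 14.0% lower and 15.9% higher, and the median log2 fold change was 0.03. Of the 19 G2/M and mitosis genes, 18 passed the low-count filter, 11 were called lower, 0 were called higher and 7 were not called, and the log2 fold change was negative in all 18 that passed, with a median of -1.16. The filter asks for enough counts in as many libraries as a group holds, so scarce genes such as Ccnb1 passed on their OBOB_FLO counts. Without the filter the median over all 19 was -1.20. DESeq2 and limma-voom also called 0 of them higher, as did an unadjusted p under 0.05. Of the 19 G1/S and replication genes, all of which passed, 7 were called lower and 1, Mcm2, was called higher. Their log2 fold changes ran from -1.53 to 0.79 with a median of -0.41. The difference between the sets was not tested. Without OBOB_FLO replicate 3, 12 G2/M genes and 6 G1/S genes were called lower and 1 G1/S gene higher.

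Added up within each library, the 19 G2/M genes gave 260 to 520 counts in OBOB_Fibrotic (median 380.5) and 616 to 1250 in OBOB_FLO (median 850). The sums did not overlap between groups, in counts or in CPM, where they were 13.2 to 24.6 against 35.4 to 61.2. The 19 G1/S genes summed to 3030 to 4073 counts in OBOB_Fibrotic (median 3467.5) and 3387 to 4740 in OBOB_FLO (median 4161.5). Here the sums overlapped, in CPM as well (158 to 205 against 201 to 232). A sum gives most weight to abundant genes. The mean log2 CPM of the 19 G1/S genes, which weighs each gene alike, did not overlap (2.47 to 2.82 against 2.91 to 3.22). That of the 19 G2/M genes did not overlap either (-0.77 to 0.27 against 0.84 to 1.56). Single libraries recurred at the ends of these ranges. OBOB_FLO replicate 4 was the highest OBOB_FLO library for 13 of the 19 G2/M genes, and OBOB_Fibrotic replicate 2 was the lowest of its group for 8. In whole liver, fewer cycling cells and less of each transcript per cell cannot be told apart.

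**Figure D1:**
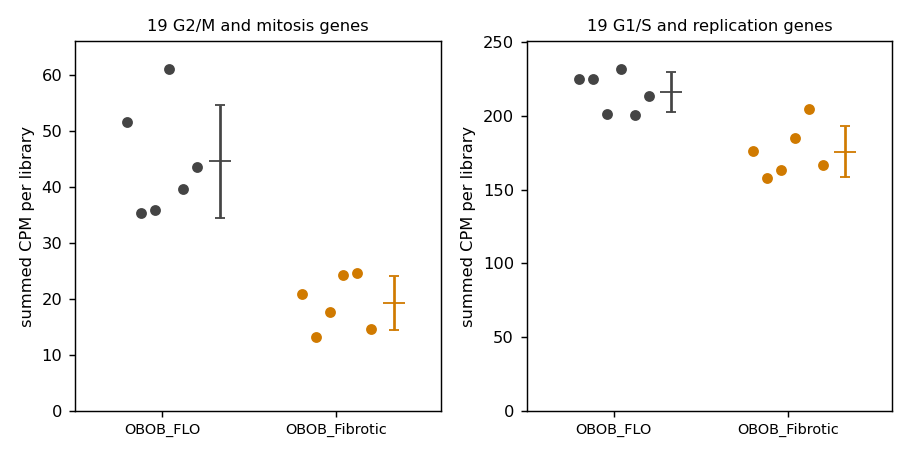
Summed CPM of the 19 G2/M and mitosis genes (left) and of the 19 G1/S and replication genes (right) in each library. Each point is 1 library (n = 6 per group) and the bar beside it is the mean ± SD. The G2/M sums of the groups lie apart (13.2 to 24.6 against 35.4 to 61.2), whereas the G1/S sums overlap. The mean log2 CPM of the 19 G1/S genes, which is not plotted, did not overlap (2.47 to 2.82 against 2.91 to 3.22).

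The CPM ranges of the groups did not overlap for 14 of the 38 genes, all of them lower in OBOB_Fibrotic. The background for this measure was 15.1% of tested genes with ranges apart and lower, and 15.3% apart and higher. The plot of fold changes orders the genes within each set.

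**Figure D2:**
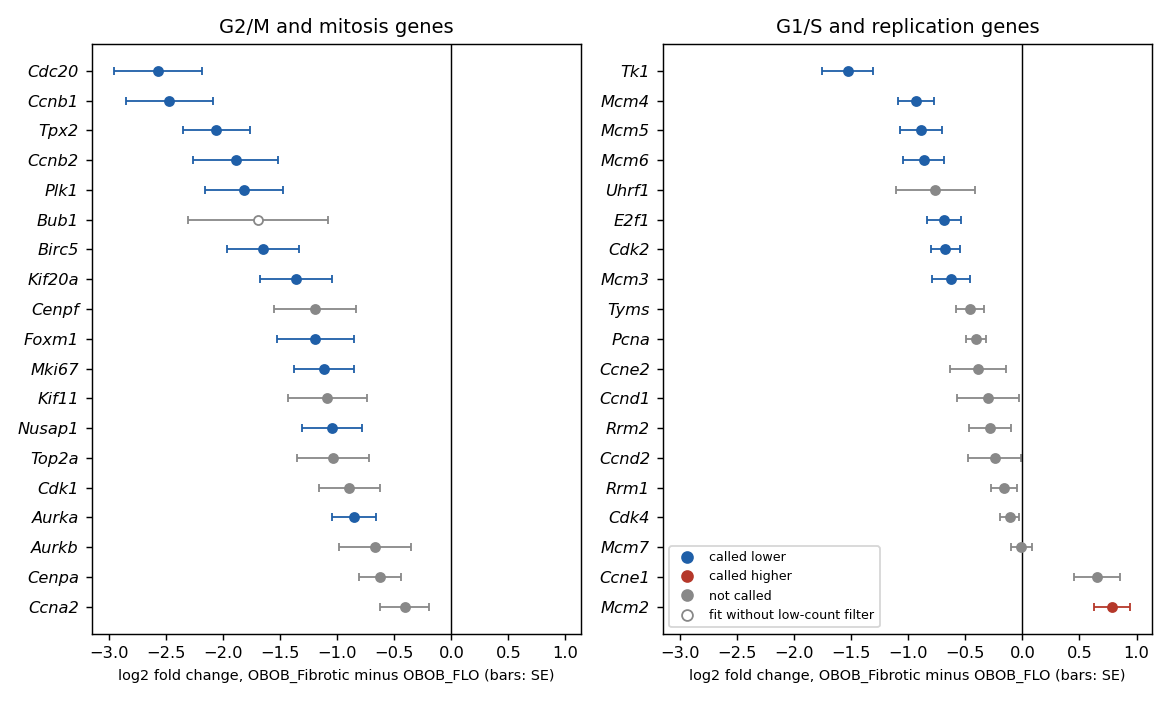
Log2 fold change of OBOB_Fibrotic relative to OBOB_FLO for each gene, with the SE as bars, for G2/M and mitosis (left) and G1/S and replication (right). Blue points were called lower, the red point (Mcm2) was called higher and grey points were not called; Bub1, the open point, comes from a fit without the low-count filter. All G2/M points lie left of 0, from Cdc20 at -2.57 to Ccna2 at -0.41.

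The cyclins and kinase that open mitosis did not move by the same amount. Ccnb1 (chr13:100778650-100786570, minus strand), the B-type cyclin that activates Cdk1 at mitotic entry, had counts from 1 to 13 in OBOB_Fibrotic (median 6.5) and from 23 to 54 in OBOB_FLO (median 30.5). Every ethionine-treated library lay below every OBOB_FLO library, and OBOB_Fibrotic replicate 2 held a single count. Ccnb1 fell 5.55-fold, to 0.317 ± 0.210 CPM in OBOB_Fibrotic against 1.79 ± 0.558 in OBOB_FLO (SD, n = 6 each) (log2 fold change -2.47 ± 0.38 SE, edgeR adjusted p = 7.13e-05). Ccnb2, the second B-type cyclin, had counts from 5 to 23 in OBOB_Fibrotic (median 10) and from 24 to 79 in OBOB_FLO (median 35.5), again with no overlap, and fell as well (log2 fold change -1.89 ± 0.37 SE, edgeR adjusted p = 5.50e-04). Processed pseudogenes of both B-type cyclins are annotated, and how reads shared with them were assigned is not given. Cdk1, the kinase these cyclins bind, had counts from 21 to 62 in OBOB_Fibrotic (median 31) and from 45 to 85 in OBOB_FLO (median 61.5), with overlapping groups, and its difference missed the call by a small margin (log2 fold change -0.89 ± 0.27 SE, edgeR adjusted p = 0.0110). It was called without OBOB_Fibrotic replicate 4 or without OBOB_FLO replicate 3, with an edgeR adjusted p of 0.00235 at the lowest. Ccna2, cyclin A, which acts in S phase and G2, ran from 26 to 61 in OBOB_Fibrotic (median 39) and from 36 to 73 in OBOB_FLO (median 50) and was not called (log2 fold change -0.41 ± 0.22 SE, edgeR adjusted p = 0.128). Within a library the ratio of Ccnb1 to Ccna2 counts was 0.0370 to 0.269 in OBOB_Fibrotic and 0.558 to 0.875 in OBOB_FLO. It was thus lower in every treated library than in any OBOB_FLO library, and its lowest value rested on a single Ccnb1 count. The ratio of Ccnb1 to Cdk1 was likewise apart (0.0476 to 0.333 against 0.410 to 0.667), whereas that of Ccnb2 to Cdk1 overlapped.

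Cdc20, the activator of the anaphase-promoting complex and target of the spindle checkpoint, had the most negative fold change of the 38 genes. Its counts ran from 3 to 22 in OBOB_Fibrotic (median 10.5) and from 39 to 123 in OBOB_FLO (median 66.5). The groups were well apart, and OBOB_FLO replicate 4 was the highest. Cdc20 fell 5.94-fold, to 0.616 ± 0.376 CPM in OBOB_Fibrotic against 3.69 ± 1.54 in OBOB_FLO (SD, n = 6 each) (log2 fold change -2.57 ± 0.39 SE, edgeR adjusted p = 5.45e-05). Foxm1, the forkhead factor that drives many mitotic genes, had counts from 10 to 24 in OBOB_Fibrotic (median 18) and from 14 to 71 in OBOB_FLO (median 33.5), and OBOB_FLO replicate 4 was the highest. Foxm1 was called lower (log2 fold change -1.19 ± 0.34 SE, edgeR adjusted p = 0.00770) with overlapping groups, but not by limma-voom (adjusted p = 0.0234). The edgeR call was kept without OBOB_Fibrotic replicate 4, OBOB_FLO replicate 3 or OBOB_FLO replicate 6, and was lost without any 1 of the other 9 libraries, with an edgeR adjusted p of up to 0.0248 (without OBOB_FLO replicate 4).

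Of the mitotic kinases, Plk1 and Aurka were called lower. Plk1, polo-like kinase, which acts from mitotic entry to cytokinesis, had counts from 3 to 16 in OBOB_Fibrotic (median 12.5) and from 21 to 59 in OBOB_FLO (median 36.5). The groups did not overlap, and Plk1 fell (log2 fold change -1.82 ± 0.34 SE, edgeR adjusted p = 3.69e-04). Aurka, the centrosomal Aurora kinase, ran from 29 to 46 in OBOB_Fibrotic (median 39.5) and from 48 to 88 in OBOB_FLO (median 70) and fell without overlap in CPM (log2 fold change -0.85 ± 0.19 SE, edgeR adjusted p = 0.00173). Aurkb, the Aurora kinase of the chromosomal passenger complex, was scarce in both groups, from 4 to 18 in OBOB_Fibrotic (median 12.5) and from 13 to 31 in OBOB_FLO (median 18), and was not called (log2 fold change -0.67 ± 0.31 SE, edgeR adjusted p = 0.0851). Birc5, survivin, another passenger complex subunit, did fall, with counts from 6 to 26 in OBOB_Fibrotic (median 10) and from 27 to 56 in OBOB_FLO (median 37) and no overlap (log2 fold change -1.65 ± 0.32 SE, edgeR adjusted p = 4.56e-04). Bub1, a checkpoint kinase at the kinetochore, was the gene that did not pass the low-count filter. Its counts were 1, 0, 4, 4, 9 and 0 in OBOB_Fibrotic and 11, 9, 13, 11, 8 and 6 in OBOB_FLO, replicates 1 to 6, so most treated libraries stood at or near the floor and the groups overlapped. In a fit without the filter, in which 7.71% of 24871 genes were called lower and 8.99% higher, Bub1 had a log2 fold change of -1.69 ± 0.61 SE and an edgeR adjusted p of 0.0391 and was not called. In that fit it was called without OBOB_Fibrotic replicate 5, the library with 9 counts (edgeR adjusted p = 0.00670). With all libraries Bub1 was called lower by limma-voom (log2 fold change -2.33, adjusted p = 0.0072) but not by DESeq2 (adjusted p = 0.0148).

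**Figure D3:**
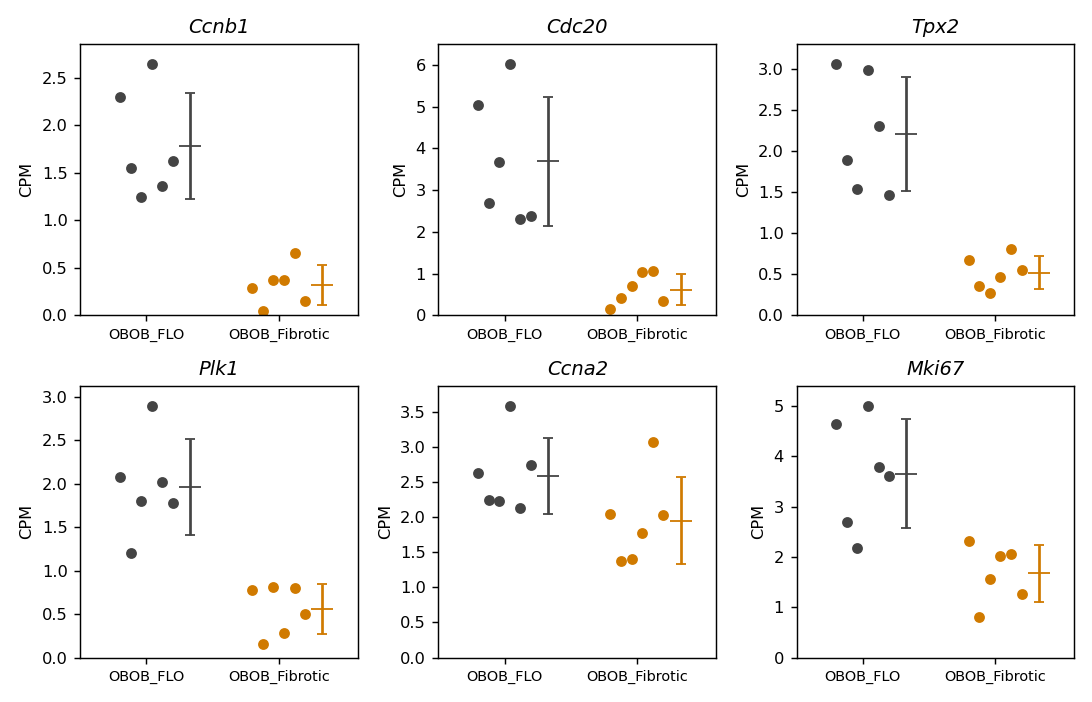
CPM of 6 G2/M genes in each library: Ccnb1, Cdc20, Tpx2, Plk1, Ccna2 and Mki67. Points are libraries (n = 6 per group), bars are the mean ± SD, and each axis starts at 0. The groups are apart for the first 4 genes and overlap for Ccna2 and Mki67.

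To show the promoters of genes that fell together, the bases just before the transcript start of Cdc20 (chr4:118437344-118437463, minus strand), Ccnb2 (chr9:70421555-70421674, minus strand) and Plk1 (chr7:122159315-122159434, plus strand) are printed, 120 bases each, from the RefSeq annotation of GRCm38. Capitals mark the CCAAT box (CCAAT or its reverse, ATTGG) and the cell cycle homology region, or CHR (TTTGAA or TTCAAA), a motif known from genes expressed in G2 and mitosis. All of these stretches hold a CCAAT box, whereas a CHR is printed for Cdc20 alone, those of Ccnb2 and Plk1 lying in other bases of their windows.
Cdc20: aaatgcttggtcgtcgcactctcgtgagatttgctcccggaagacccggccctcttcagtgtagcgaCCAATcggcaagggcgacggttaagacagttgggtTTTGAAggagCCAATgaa
Ccnb2: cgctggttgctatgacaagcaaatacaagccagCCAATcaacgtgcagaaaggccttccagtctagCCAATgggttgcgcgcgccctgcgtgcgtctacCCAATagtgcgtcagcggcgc
Plk1: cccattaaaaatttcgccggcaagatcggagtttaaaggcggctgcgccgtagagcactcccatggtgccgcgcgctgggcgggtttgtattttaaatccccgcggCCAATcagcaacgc
A window of 300 bases, 250 before to 50 after the start, was searched on both strands for all RefSeq genes, and 29 of the 38 genes had 31 such windows. Genes without a window were Ccna2, Aurkb, Kif20a, Foxm1 and Tpx2 of the G2/M set and Ccnd1, Ccnd2, Ccne2 and Mcm4 of the G1/S set. A CCAAT box was found in 12 of 14 G2/M windows (85.7%), against 37.4% of all windows and 37.3% of windows of tested genes. A CHR was found in 10 of 14 G2/M windows (71.4%), against 17.9% of all windows and 12.1% of those of tested genes. The same 10 windows held both, and they included those of Cdk1, Top2a, Cenpa, Cenpf and Kif11, which were not called. The window of Ccnb1, called lower, held no CHR. Those of Birc5 and Nusap1, both called lower, held neither motif. Letters alone do not show that a factor binds there.

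Of the genes for spindle proteins, Tpx2, Kif20a and Nusap1 were called lower. Tpx2, which activates Aurora A on spindle microtubules, had counts from 5 to 16 in OBOB_Fibrotic (median 10.5) and from 29 to 61 in OBOB_FLO (median 37.5). No library of one group reached the other, and Tpx2 fell 4.17-fold (log2 fold change -2.06 ± 0.29 SE, edgeR adjusted p = 3.28e-05). Kif20a, a kinesin of the central spindle, had counts from 11 to 54 in OBOB_Fibrotic (median 24) and from 49 to 91 in OBOB_FLO (median 58.5) and fell without overlap in CPM (log2 fold change -1.36 ± 0.31 SE, edgeR adjusted p = 0.00196). Of its exon bases 29.3% are shared with Cdc23 on the opposite strand, and whether the counting used strand is not given. Nusap1, a spindle microtubule binder, was low in both groups, from 6 to 18 in OBOB_Fibrotic (median 9) and from 14 to 25 in OBOB_FLO (median 20.5), and was called lower with overlapping groups (log2 fold change -1.05 ± 0.26 SE, edgeR adjusted p = 0.00341), though not in the fit without the low-count filter (edgeR adjusted p = 0.0135). Kif11, the kinesin that pushes spindle poles apart, ran from 5 to 30 in OBOB_Fibrotic (median 13) and from 15 to 47 in OBOB_FLO (median 32) and was not called (log2 fold change -1.09 ± 0.35 SE, edgeR adjusted p = 0.0159), but was called without OBOB_Fibrotic replicate 4 (edgeR adjusted p = 0.00285).

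The remaining G2/M genes belong to chromosomes and centromeres. Mki67, which coats mitotic chromosomes and is the usual marker of cycling cells, had counts from 16 to 48 in OBOB_Fibrotic (median 35) and from 47 to 102 in OBOB_FLO (median 67.5). The groups met at their edges, the highest OBOB_Fibrotic library (48) just above the lowest OBOB_FLO library (47), and 5 of 6 treated libraries lay below every OBOB_FLO library in CPM. Mki67 fell 2.17-fold (log2 fold change -1.12 ± 0.26 SE, edgeR adjusted p = 0.00217). Top2a, the topoisomerase that untangles sister chromatids, had counts from 18 to 60 in OBOB_Fibrotic (median 29) and from 34 to 106 in OBOB_FLO (median 67) and was not called (log2 fold change -1.04 ± 0.32 SE, edgeR adjusted p = 0.0127). The call was made without OBOB_Fibrotic replicate 4, OBOB_Fibrotic replicate 5 or OBOB_FLO replicate 2 (edgeR adjusted p down to 0.00414). Cenpa, the histone H3 variant of centromeres, ran from 34 to 58 in OBOB_Fibrotic (median 45.5) and from 41 to 91 in OBOB_FLO (median 71) and narrowly missed the call (log2 fold change -0.63 ± 0.19 SE, edgeR adjusted p = 0.0101); it was called without OBOB_Fibrotic replicate 1 or OBOB_FLO replicate 2 (down to 0.00405). Cenpf, a large kinetochore protein, ran from 4 to 17 in OBOB_Fibrotic (median 15) and from 12 to 34 in OBOB_FLO (median 29) and was not called (log2 fold change -1.20 ± 0.36 SE, edgeR adjusted p = 0.0111), but was called without OBOB_FLO replicate 5 (0.00678) and under 5 other alternatives, DESeq2 (0.00357) and limma-voom (0.00923) among them. Per kilobase of exon, the level of Cenpf was the lowest of the 38 genes, 0.0881 CPM per kb in OBOB_FLO, where that of Pcna was the highest, 12.8.

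Of the genes that commit a cell to the cycle, the D-type cyclins and Cdk4 were not called. Ccnd1, a D-type cyclin abundant in liver, had counts from 227 to 698 in OBOB_Fibrotic (median 357.5) and from 308 to 667 in OBOB_FLO (median 511). The groups overlapped broadly, and Ccnd1 was not called (log2 fold change -0.30 ± 0.27 SE, edgeR adjusted p = 0.367). Ccnd2, another D-type cyclin, ran from 60 to 145 in OBOB_Fibrotic (median 86.5) and from 72 to 199 in OBOB_FLO (median 96.5) and was not called (log2 fold change -0.24 ± 0.23 SE, edgeR adjusted p = 0.405). Cdk4, the kinase of D-type cyclins, ran from 609 to 738 in OBOB_Fibrotic (median 661) and from 572 to 837 in OBOB_FLO (median 711) and was not called (log2 fold change -0.11 ± 0.08 SE, edgeR adjusted p = 0.253). With 11.1 CPM per kb in OBOB_FLO its level was near that of Pcna. Exons of Ccnd1 and Cdk4 share 23.4% and 19.7% of their bases with genes on the opposite strand.

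Ccne1 and Ccne2, the E-type cyclins that activate Cdk2 at the start of S phase, had fold changes of opposite sign, and neither was called. Ccne1 counts ran from 66 to 110 in OBOB_Fibrotic (median 90) and from 44 to 71 in OBOB_FLO (median 52). All 6 treated libraries lay above the OBOB_FLO median in CPM, the groups overlapped, and the edgeR result missed the call (log2 fold change 0.66 ± 0.20 SE, edgeR adjusted p = 0.0124). It was called higher by DESeq2 (adjusted p = 0.00737) and by limma-voom (adjusted p = 0.00802), and by edgeR without OBOB_Fibrotic replicate 2, OBOB_FLO replicate 1 or OBOB_FLO replicate 5 (down to 0.00610). Ccne2 counts ran from 15 to 27 in OBOB_Fibrotic (median 25.5) and from 18 to 39 in OBOB_FLO (median 29) (log2 fold change -0.39 ± 0.25 SE, edgeR adjusted p = 0.201). Cdk2 itself fell, with counts from 91 to 139 in OBOB_Fibrotic (median 117) and from 159 to 207 in OBOB_FLO (median 167) (log2 fold change -0.67 ± 0.13 SE, edgeR adjusted p = 4.00e-04). E2f1, the activating E2F factor, also fell, with counts from 91 to 134 in OBOB_Fibrotic (median 107) and from 137 to 202 in OBOB_FLO (median 166) (log2 fold change -0.69 ± 0.15 SE, edgeR adjusted p = 0.00112). For Cdk2 and E2f1 the counts of the groups did not overlap but the CPM did, for Cdk2 in 1 library.

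The Mcm genes, whose products form the replicative helicase, split. Mcm2 (chr6:88883474-88898780, minus strand) was the gene called higher. Its counts ran from 229 to 408 in OBOB_Fibrotic (median 312.5) and from 111 to 240 in OBOB_FLO (median 180.5). The CPM ranges touched, the lowest treated library at 11.7 and the highest OBOB_FLO library at 11.8, and all 6 treated libraries were above the OBOB_FLO median. Mcm2 rose 1.73-fold, to 15.6 ± 2.62 CPM in OBOB_Fibrotic against 9.02 ± 2.12 in OBOB_FLO (SD, n = 6 each) (log2 fold change 0.79 ± 0.16 SE, edgeR adjusted p = 6.48e-04), and the call was kept in all 12 fits that left out 1 library.

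The partners Mcm3, Mcm4, Mcm5 and Mcm6 were called lower. Mcm4 counts ran from 50 to 88 in OBOB_Fibrotic (median 61.5) and from 77 to 146 in OBOB_FLO (median 118.5), apart in CPM, and the gene fell to 3.18 ± 0.565 CPM in OBOB_Fibrotic against 6.09 ± 1.17 in OBOB_FLO (SD, n = 6 each) (log2 fold change -0.93 ± 0.16 SE, edgeR adjusted p = 1.73e-04). Mcm5 counts ran from 37 to 93 in OBOB_Fibrotic (median 53) and from 85 to 114 in OBOB_FLO (median 110.5), apart in CPM although not in raw counts, and the gene fell (log2 fold change -0.89 ± 0.18 SE, edgeR adjusted p = 8.73e-04). Mcm6 counts ran from 58 to 124 in OBOB_Fibrotic (median 97) and from 106 to 217 in OBOB_FLO (median 175.5), likewise apart in CPM only, and the gene fell (log2 fold change -0.87 ± 0.18 SE, edgeR adjusted p = 9.08e-04). Mcm3 counts ran from 57 to 112 in OBOB_Fibrotic (median 88.5) and from 92 to 169 in OBOB_FLO (median 133) with overlapping groups, and the gene was called lower (log2 fold change -0.63 ± 0.17 SE, edgeR adjusted p = 0.00570). The Mcm3 call was kept without OBOB_Fibrotic replicate 1, 4 or 5 or OBOB_FLO replicate 5 or 6, and was lost without any 1 of the other 7 libraries (edgeR adjusted p up to 0.0156, without OBOB_FLO replicate 4). Mcm7 did not differ beyond its error, with counts from 221 to 316 in OBOB_Fibrotic (median 274.5) and from 220 to 321 in OBOB_FLO (median 266.5) (log2 fold change -0.01 ± 0.09 SE, edgeR adjusted p = 0.950), and the sign of its fold change depended on which library was left out.

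The split among the helicase genes was also seen in ratios taken within each library, where library size cancels. The ratio of Mcm2 to Mcm5 counts was 3.60 to 7.41 in OBOB_Fibrotic (median 5.46) and 1.28 to 2.14 in OBOB_FLO (median 1.63). Mcm2 to Mcm4 was 3.88 to 6.72 against 1.20 to 2.00, and Mcm2 to Mcm6 was 2.7 to 3.95 against 0.948 to 1.22. Mcm2 to Mcm3 was 2.61 to 5.89 against 1.21 to 1.47, and Mcm2 to Mcm7 was 1.01 to 1.29 against 0.5 to 0.857. None of these 5 ratios overlapped between groups, and each was higher in every ethionine-treated library, which shows unequal change of these transcripts and not which of them moved.

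**Figure D4:**
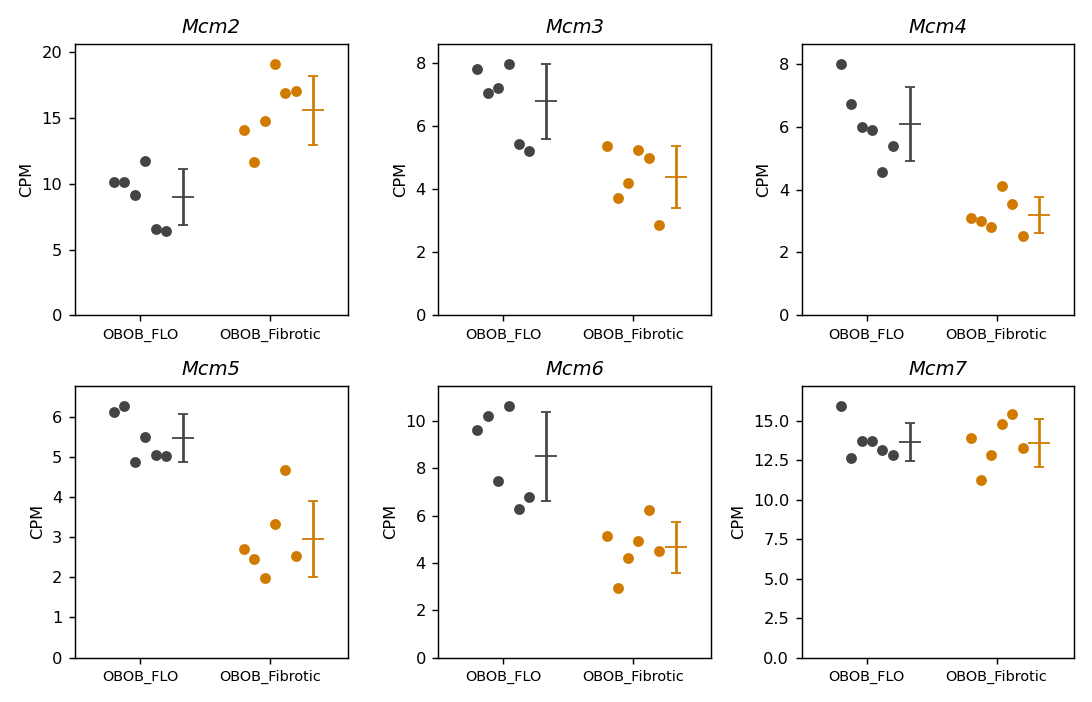
CPM of Mcm2, Mcm3, Mcm4, Mcm5, Mcm6 and Mcm7 in each library. Points are libraries (n = 6 per group), bars are the mean ± SD, and each axis starts at 0. Mcm2 is higher in OBOB_Fibrotic (mean 15.6 against 9.02 CPM), Mcm3 to Mcm6 are lower and Mcm7 was not called.

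The promoters of Mcm2 (chr6:88898781-88898940, minus strand), Mcm5 (chr8:75109349-75109508, plus strand) and Mcm6 (chr1:128359706-128359865, minus strand) are shown because these helicase genes moved in opposite directions. They are the 160 bases before the RefSeq start in GRCm38 for Mcm2 and stretches of the same length before the start for the others. Capitals mark the CCAAT box and CHR as above and forms of the E2F site (TTTGGCGC, TTTCCCGC, TTTCGCGC or TTTGCCGC, or the reverse of each). In Mcm5 and Mcm6 a pair of E2F forms on opposite strands overlaps, so the capitals run together.
Mcm2: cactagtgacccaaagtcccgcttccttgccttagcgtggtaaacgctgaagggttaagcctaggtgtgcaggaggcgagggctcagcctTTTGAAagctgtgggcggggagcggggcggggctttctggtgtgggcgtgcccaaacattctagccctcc
Mcm5: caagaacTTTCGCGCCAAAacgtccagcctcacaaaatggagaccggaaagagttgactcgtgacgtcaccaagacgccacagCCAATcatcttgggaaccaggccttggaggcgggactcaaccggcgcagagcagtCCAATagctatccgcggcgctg
Mcm6: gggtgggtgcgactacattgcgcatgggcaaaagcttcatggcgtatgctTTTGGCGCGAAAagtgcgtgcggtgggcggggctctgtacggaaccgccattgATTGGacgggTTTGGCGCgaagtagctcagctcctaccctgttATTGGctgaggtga
An E2F form was present in 6 of 17 windows of the G1/S genes (35.3%) and in 1 of 14 of the G2/M genes (7.14%), against 2.26% of all windows and 3.71% of those of tested genes. Mcm3, Mcm5, Mcm6 and 1 of 2 Mcm7 windows held one and the Mcm2 window held none. A form was also found for Cdk2, called lower, and in 1 window of Uhrf1, which was not called. The windows of Tk1 and E2f1, both called lower, held none. Mcm2 had the only CHR among the 17 G1/S windows (5.88%). A CCAAT box was in 12 of the 17 (70.6%). Other E2F-like letters were not searched, and a match or its lack says nothing of binding.

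Enzymes of nucleotide supply and the replication fork were uneven as well. Tk1, thymidine kinase of the salvage route, had counts from 44 to 129 in OBOB_Fibrotic (median 75) and from 174 to 273 in OBOB_FLO (median 224.5). Every treated library was below every OBOB_FLO library. Tk1 fell 2.89-fold, to 3.90 ± 1.67 CPM in OBOB_Fibrotic against 11.3 ± 1.04 in OBOB_FLO (SD, n = 6 each), the most negative fold change of the G1/S set (log2 fold change -1.53 ± 0.22 SE, edgeR adjusted p = 4.13e-05). Tyms, thymidylate synthase, which makes the same product by the other route, ran from 82 to 108 in OBOB_Fibrotic (median 100.5) and from 117 to 152 in OBOB_FLO (median 126). Its groups did not overlap and its p passed, but its fold change was under the threshold, so it was not called (log2 fold change -0.46 ± 0.12 SE, edgeR adjusted p = 0.00535). Pcna, the sliding clamp of DNA polymerases, behaved alike, with counts from 376 to 558 in OBOB_Fibrotic (median 462.5) and from 494 to 718 in OBOB_FLO (median 564), no overlap in CPM and a fold change under the threshold (log2 fold change -0.41 ± 0.09 SE, edgeR adjusted p = 0.00132). Processed pseudogenes of Pcna and Tyms are annotated, which leaves a share of their reads uncertain. Rrm1, the large subunit of ribonucleotide reductase, ran from 156 to 216 in OBOB_Fibrotic (median 194.5) and from 176 to 253 in OBOB_FLO (median 203) and was not called (log2 fold change -0.16 ± 0.11 SE, edgeR adjusted p = 0.264). Rrm2, its small subunit in cycling cells, ran from 182 to 371 in OBOB_Fibrotic (median 261) and from 246 to 400 in OBOB_FLO (median 305.5) and was not called (log2 fold change -0.28 ± 0.18 SE, edgeR adjusted p = 0.218). Uhrf1, which carries DNA methylation through replication, ran from 11 to 39 in OBOB_Fibrotic (median 23.5) and from 15 to 65 in OBOB_FLO (median 36.5), spread widely in both groups, and was not called (log2 fold change -0.76 ± 0.35 SE, edgeR adjusted p = 0.0769).

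Other genes of the pathway were read from 9 lists with 148 genes, of which 122 were tested. Of these, 31 were called lower (25.4%) and 5 higher, the same numbers as without OBOB_FLO replicate 3. Their median log2 fold change was -0.31, and among all tested genes 14.0% were called lower and 15.9% higher. Of 8 listed inhibitors of cyclin-dependent kinases 5 were tested, of which 3 were called higher and 0 lower (DESeq2 and limma-voom also 0, and 1 at an unadjusted p under 0.05, Cdkn1b). Cdkn1a, an inhibitor induced by p53, had counts from 2207 to 7475 in OBOB_Fibrotic (median 3752) and from 234 to 953 in OBOB_FLO (median 704.5). Even the lowest treated library was above the highest OBOB_FLO library, and Cdkn1a rose 5.82-fold (log2 fold change 2.54 ± 0.39 SE, edgeR adjusted p = 1.48e-04). Cdkn1c (log2 fold change 1.80, edgeR adjusted p = 1.24e-05) and Cdkn2c (log2 fold change 0.53, edgeR adjusted p = 1.71e-04), inhibitors of the Cip/Kip and Ink families, rose too, with groups apart. Exons of Cdkn1c share 30.7% of their bases with a gene on the opposite strand, Gm44732. The Cdkn2c change lay at the threshold and was under it without OBOB_Fibrotic replicate 5 (log2 fold change of Cdkn2c 0.499) or OBOB_FLO replicate 2 (0.493). Cdkn1b was not called (log2 fold change -0.39, edgeR adjusted p = 0.00893). The direction was mixed over the list. Over the 5 tested genes the median log2 fold change was 0.53. In the fit without the filter 3 of the 8 were positive, and the median over the 8 was -0.30. That fit adds 3 scarce genes that did not pass the filter, with at most 17 counts in a library.

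Of all tested genes 14.0% were called lower and 15.9% higher. Among 15 tested genes of origin licensing and firing, 0 were called higher (DESeq2 and limma-voom also 0, and 1 at an unadjusted p under 0.05). Lower calls numbered 4 (26.7%). They were Cdc45, which joins the Mcm ring in the active helicase (log2 fold change -1.15, edgeR adjusted p = 5.33e-04), the helicase relative Mcm8 (log2 fold change -0.73, edgeR adjusted p = 0.00112), the GINS subunit Gins4 (log2 fold change -0.69, edgeR adjusted p = 2.56e-05) and Cdt1, which loads Mcm rings (log2 fold change -0.62, edgeR adjusted p = 0.00523). The Cdt1 call was kept without OBOB_Fibrotic replicate 4 or 5 or OBOB_FLO replicate 3 or 6 and was lost without any 1 of the other 8 libraries (edgeR adjusted p up to 0.0134, without OBOB_FLO replicate 2). Of 24 tested genes of the replication fork and nucleotide supply, 7 were called lower (29.2%) and 0 higher. DESeq2 and limma-voom also called 0 higher, and 2 were higher at an unadjusted p under 0.05. The single-strand binding subunit Rpa2 (-0.79), the polymerase Pole (-0.77) and the clamp loader subunit Rfc4 (-0.70, log2 fold changes) fell with groups apart. In the E2F and pocket protein list 2 of 15 were called lower (13.3%, about the 14.0% of all tested genes), E2f5 (log2 fold change -0.75, edgeR adjusted p = 9.20e-04) and the MuvB subunit Lin9 (log2 fold change -0.75, edgeR adjusted p = 0.00791). The Lin9 call was kept without OBOB_Fibrotic replicate 5 or 6 or OBOB_FLO replicate 3 or 5 and was lost without any 1 of the other 8 (up to 0.0198, without OBOB_FLO replicate 1). Rb1 (log2 fold change 0.20, edgeR adjusted p = 0.218), Rbl1 (log2 fold change -0.20, edgeR adjusted p = 0.548) and E2f8 (log2 fold change 0.73, edgeR adjusted p = 0.0702) were not called, and E2f7 (3 to 9 counts against 2 to 13) and Mybl2 (6 to 10 against 4 to 19), which encodes B-Myb, did not pass the filter. Of 8 other cyclins and kinase subunits tested, 1 was called lower (12.5%, likewise), Cks1b (log2 fold change -0.73, edgeR adjusted p = 0.00240), and Ccnd3 was not called (log2 fold change -0.16, edgeR adjusted p = 0.0642).

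The mitotic lists were uneven when set beside the 14.0% of all tested genes called lower. Of 15 tested genes of the kinetochore and spindle checkpoint, 7 were called lower (46.7%) and 1 higher. Spc24, of the Ndc80 complex, had counts from 68 to 137 in OBOB_Fibrotic (median 93.5) and from 213 to 400 in OBOB_FLO (median 276.5) and fell without overlap (log2 fold change -1.66 ± 0.17 SE, edgeR adjusted p = 1.75e-06). Cenpn (1 to 13 counts against 9 to 21) and Nuf2 (2 to 15 counts against 13 to 22) were called lower on few counts (log2 fold change -1.54, edgeR adjusted p = 0.00757 and log2 fold change -1.40, edgeR adjusted p = 0.00931). The Cenpn call was kept without OBOB_Fibrotic replicate 1 or 5 or OBOB_FLO replicate 1 or 6 and lost without any 1 of the other 8 libraries (up to 0.0197, without OBOB_FLO replicate 2). That of Nuf2 was kept without OBOB_Fibrotic replicate 4 or 5 or OBOB_FLO replicate 3 and lost without any 1 of the other 9 (up to 0.0236, without OBOB_Fibrotic replicate 6). Ttk, the checkpoint kinase Mps1, was the exception, with counts from 10 to 95 in OBOB_Fibrotic (median 35) and from 5 to 17 in OBOB_FLO (median 8.5). It rose with overlapping groups (log2 fold change 2.06 ± 0.49 SE, edgeR adjusted p = 0.00242) and was not called by limma-voom (adjusted p = 0.0143). Of 15 tested genes of G2 entry and the anaphase-promoting complex, 3 were called lower (20%, near the share of all genes) and 1 higher. Ube2c, the ubiquitin-conjugating enzyme of that complex, had counts from 2 to 15 in OBOB_Fibrotic (median 8) and from 31 to 60 in OBOB_FLO (median 44.5) and fell without overlap (log2 fold change -2.48 ± 0.33 SE, edgeR adjusted p = 1.62e-05). Its exons share 22.8% of their bases with Tnnc2 on the opposite strand. The mitotic kinase Pbk (log2 fold change -1.74, edgeR adjusted p = 0.00243) and Pkmyt1, an inhibitory kinase of Cdk1 (log2 fold change -1.31, edgeR adjusted p = 1.22e-04), fell, and Cdc25a, a phosphatase that activates Cdk2 and Cdk1, rose with groups apart (log2 fold change 0.90, edgeR adjusted p = 2.58e-04). Wee1 was not called (log2 fold change -0.32, edgeR adjusted p = 0.139). Of 11 tested genes of spindle motors and cytokinesis 2 were called lower (18.2%, near that share as well), Prc1 (log2 fold change -1.36, edgeR adjusted p = 0.00141) and Racgap1 (log2 fold change -1.32, edgeR adjusted p = 0.00107). The median log2 fold change of these 11 was -0.79, against 0.03 for all tested genes. Another 7 of the 18 listed genes did not pass the low-count filter. Of 14 condensin and cohesin genes 5 were called lower (35.7%), among them Ncapg (-1.57), Ncapd3 (-0.86), Ncapd2 (-0.79) and securin, Pttg1 (-0.76, log2 fold changes). Ncapg was near the edge of the low-count filter. It was tested in only 8 of the 12 fits that left out 1 library, and was called in all 8.

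Markers of some other liver cell types were called too, against 14.0% of all tested genes called lower and 15.9% higher. Their levels are given as sums over each whole list. Of 8 erythroid markers 6 were tested, 2 were called lower, and their summed level was 344 to 462 CPM in OBOB_Fibrotic and 416 to 701 in OBOB_FLO. Klf1, the erythroid transcription factor, had counts from 11 to 27 in OBOB_Fibrotic (median 14.5) and from 61 to 142 in OBOB_FLO (median 81.5) and fell without overlap (log2 fold change -2.42 ± 0.24 SE, edgeR adjusted p = 1.07e-06). The other tested erythroid markers moved much less. Hbb-bs was called lower (log2 fold change -0.51). Alas2 (-0.54), Hba-a1 (-0.35), Hbb-bt (-0.38) and Epor (0.34) were not called. Of 6 endothelial markers 1, Kdr, was called lower (log2 fold change -0.58, edgeR adjusted p = 6.07e-05), and the summed levels were apart, 118 to 163 against 164 to 189 CPM. Kupffer cell markers were called higher in 4 of 6 (179 to 340 against 125 to 163 CPM), monocyte and macrophage markers in 2 of 6 tested (77.5 to 171 against 62.6 to 85.4) and cholangiocyte markers in 3 of 5 tested (80.7 to 275 against 47.2 to 88.0). Of 8 hepatocyte markers 2 were called lower and 1 higher, of 6 stellate cell markers 1 higher (193 to 329 against 173 to 265 CPM), and of 2 tested neutrophil markers 1 higher (3.07 to 7.53 against 1.64 to 6.15 CPM). None of the 2 T and NK cell markers (1.64 to 6.13 against 1.70 to 6.10 CPM) and not the 1 B cell marker (0.889 to 2.37 against 0.919 to 2.15 CPM) that passed the filter was called. No listed marker was at 0 in all libraries, and the part of these cell types in the differences of the cell cycle genes was not tested.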

How the data were processed

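Poly(A) RNA of 12 whole livers was sequenced by the authors, 6 mice per group, and groups and replicate numbers were read from the sample titles. What the authors deposited is a single table that holds whole-number read counts for each Ensembl identifier and was not normalized. The submitters' processing notes name bcl2fastq, STAR 2.7.3a and the build mm10, and the study's methods name a stranded mRNA kit and the quantifier PISCES. The gene annotation and the strand setting of the counting are not given in the sources used here. A symbol was found for 51745 of 56205 identifiers.

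The counts of OBOB_Fibrotic and OBOB_FLO were compared over all 12 libraries by quasi-likelihood F tests of edgeR (version 4.0.16, R 4.3.3), after filterByExpr and with TMM factors and robust dispersion estimates, with Benjamini-Hochberg adjustment over the 13416 genes that passed. Calls needed an adjusted p of at most 0.01 together with a log2 fold change beyond 0.5 in either direction, which are limits that the methods of the study use. The SE of a log2 fold change is its size over the root of its F value. Alternatives used DESeq2 1.42.0 and limma 3.58.1 (voom), other normalizations and filters, a replicate block and each library left out in turn. The steps were tested on simulated data. Every pair of libraries of a group differed by more than sampling noise (smallest chi-square per degree of freedom 10.7). SDs include the counting error, and since 1 mouse gave 1 library, p-values rest on the spread between mice.

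All 38 genes are named. Of each other pathway list up to 4 called genes with the largest fold changes are named, besides Cdkn1a, Cdkn1b, Ccnd3, E2f7, E2f8, Rb1, Rbl1, Mybl2, Cdt1 and Wee1. The genes and lists were chosen with earlier results of these data known, so they are no independent evidence, and 1 gene of the pathway lists was not analysed here and 1 is not reported here. Exon lengths, overlaps and pseudogenes came from GENCODE M21 and promoter windows from RefSeq, both on GRCm38, the mm10 assembly. Exon bases of 12 of the 38 genes are shared with a gene on the opposite strand.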

Additional observations from a re-analysis of the deposited data

Results flagged for a closer look

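Among the 6 libraries of a group, the distance of the extreme library from the next one, as a share of the whole spread of that group, was taken for each of the 38 genes on log2 CPM. Of 76 such ratios 2 passed Dixon's critical value for 6 samples, where chance passes about 1 in 20 groups, or 3.8 of 76. Bub1 in OBOB_FLO replicate 6 was low, at a ratio of 0.634, with 6 counts or 0.305 CPM against 0.474 to 0.602 CPM in the other OBOB_FLO libraries. Mcm7 in OBOB_FLO replicate 1 was high, at a ratio of 0.638, with 291 counts or 15.9 CPM against 12.6 to 13.7 CPM in the others.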

How the results depend on the processing

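The number of G2/M genes called lower (11) stayed within 10 to 14 when each library was left out in turn, and was 16 by DESeq2, which added Top2a, Cdk1, Cenpa, Cenpf and Kif11. The number of G1/S genes called lower (7) stayed within 6 to 7. The number of G1/S genes called higher was 1 to 2 when each library was left out, and 2 with DESeq2, with limma-voom and at an adjusted p of 0.05, Ccne1 being the second. Mcm7 had log2 fold changes of -0.042 to 0.041 when each library was left out. The sign turned to 0.041 without OBOB_Fibrotic replicate 2, 0.014 without OBOB_Fibrotic replicate 3, 0.00039 without OBOB_Fibrotic replicate 6 and 0.038 without OBOB_FLO replicate 1, against -0.01 with all libraries, and the cause was not tested. Of 1646 single-gene results under the alternatives, 1537 kept their direction and side of the threshold, 70 lost the call (11 genes), 35 gained it (7 genes) and 4 turned sign (1 gene). Leaving out OBOB_FLO replicate 3 with OBOB_Fibrotic replicate 4, and thinning to the smallest total, were chosen after seeing the data and gave 14 and 13 G2/M genes called lower.

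Same-numbered libraries showed little correlation. Correlations of their deviations from the group mean ran from -0.162 to 0.104, and 1 of 6 was over 0.1. Whether the replicate numbers pair the libraries cannot be told from these values. With the replicate block the counts called lower were 11 G2/M, 7 G1/S and 28 of the pathway genes (31 without the block), with 1 G1/S and 6 pathway genes higher. Under the block Aurka (adjusted p = 0.0113) and Nusap1 (0.0109) were not called, and Top2a (0.00607) and Cdk1 (0.00674) were. Depth limits the scarce genes, since 3 counts are 0.128 to 0.178 CPM, and Bub1 and 25 genes of the pathway lists did not pass the filter.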
